A study of Mus musculus with 12 samples.

Results

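The genes described here code for the proteins of the cytosolic ribosome. They were the 76 rows, of 24421 gene symbols in the count table, whose symbol is Rpl or Rps with a number and an optional a or x, or is Rplp0, Rplp1, Rplp2 or Rpsa. Of the 76, 30 code for proteins of the small (40S) subunit and 46 for proteins of the large (60S) subunit. They were measured in blood stem and progenitor cells of mice, as 12 RNA-seq libraries of 4 genotypes with 3 libraries each. The cells were LSK cells of the bone marrow (GFP+, without lineage markers and with Kit and Sca-1 on the surface), sorted from secondary recipient mice that carried a graft of donor stem and progenitor cells. The donor cells were of 4 genotypes. They were wildtype, whose titles read Empty; miR146aKO, a knockout of the microRNA miR-146a whose titles read Mir-146 KO/Empty; Runx1mut (the frameshift allele Runx1S291fsX300); and miR146aKO_Runx1mut (both alterations). The labels do not say what Empty stands for, by which means the cells received mutant Runx1, whether recipients were pooled, or whether libraries of 1 genotype are from different mice. The p-values below therefore measure the spread between libraries, which may in part be technical.

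The small subunit reads the messenger RNA, and the large subunit joins the amino acids. Each ribosome holds most of these proteins as a single copy, so the genes are expressed at high and similar levels, and their mRNAs share a pyrimidine-rich 5′ end (the TOP start) through which mTOR signalling controls their translation. In blood formation the group is known from Diamond-Blackfan anaemia, an inherited red cell failure with mutations in ribosomal protein genes, and from the deletion of the long arm of chromosome 5 in myelodysplastic syndrome. That deletion removes a copy of human RPS14 and, in many patients, of the gene for miR-146a. Free Rpl5 and Rpl11, bound to 5S ribosomal RNA, block Mdm2 and so stabilise p53.

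The start of these genes is what the TOP rule describes, so the promoters of 9 members that the results below turn on are shown. RefSeq promoters of GRCm38.p6 were available for 56 of the 76 members. Each line gives 60 bases before the annotated start and 20 bases from it, 5′ to 3′ on the gene's strand. Capitals mark the longest run of at least 6 pyrimidines that reaches within 20 bases of the start, and a line without capitals has none. The first 4 genes were relatively high in both of the libraries A015 and A042, the next 4 were relatively low in both, and Rpl28 had the smallest p in the comparison of miR146aKO with wildtype.
Rpl15: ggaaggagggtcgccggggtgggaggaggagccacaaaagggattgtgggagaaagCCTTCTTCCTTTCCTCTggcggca
Rpl14: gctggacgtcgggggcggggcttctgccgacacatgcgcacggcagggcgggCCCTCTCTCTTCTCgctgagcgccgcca
Rpl13: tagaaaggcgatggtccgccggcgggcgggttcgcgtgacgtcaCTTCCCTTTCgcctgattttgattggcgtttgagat
Rps10: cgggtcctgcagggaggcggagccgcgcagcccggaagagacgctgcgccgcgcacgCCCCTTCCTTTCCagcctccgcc
Rpl12: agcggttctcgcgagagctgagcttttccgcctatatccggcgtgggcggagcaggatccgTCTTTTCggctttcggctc
Rpl41: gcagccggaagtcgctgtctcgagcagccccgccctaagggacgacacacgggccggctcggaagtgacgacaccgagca
Rps7: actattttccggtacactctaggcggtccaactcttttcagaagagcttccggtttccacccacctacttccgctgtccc
Rpl38: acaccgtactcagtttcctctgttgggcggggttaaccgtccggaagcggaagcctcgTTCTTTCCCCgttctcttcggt
Rpl28: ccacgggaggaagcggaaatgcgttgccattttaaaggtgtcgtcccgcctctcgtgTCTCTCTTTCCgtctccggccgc
In GRCm38.p6 these lie at chr14:18270967-18271046 (Rpl15, minus strand), chr9:120571457-120571536 (Rpl14, plus strand), chr8:123102290-123102369 (Rpl13, plus strand), chr17:27635225-27635304 (Rps10, minus strand), chr2:32961652-32961731 (Rpl12, plus strand), chr10:128549149-128549228 (Rpl41, minus strand), chr12:28635934-28636013 (Rps7, minus strand), chr11:114668520-114668599 (Rpl38, plus strand) and chr7:4792905-4792984 (Rpl28, plus strand).

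Such a pyrimidine run was found at 41 of the 56 member genes (73.2%), against 47.8% of the 27025 genes in the promoter table. The 4 genes shown as high in A015 and A042 carried a run, as did Rpl28. Among the 4 low genes shown, Rpl12 and Rpl38 carried a run and Rpl41 and Rps7 had none. Of the further high genes with a promoter here, Rpl11, Rps9 and Rpl18 carried a run. Of the further low genes, Rps12, Rps21 and Rpl4 did, and Rpl27 and Rps28 did not. The remaining high and low genes had no promoter here. All were picked from their values, so this is a description with no test. In the window from 250 bases before to 50 bases after the start, searched on both strands, CCGGAAG (the core bound by ETS factors such as GABPA) was present in 41.1% of member genes and 9.9% of all genes. CTTTCC, a pyrimidine hexamer that can lie inside the run, was present in 51.8% and 29.3%. AAGATGG, the core bound by YY1, was present in 16.1% and 7.3%. A match is a string of letters in this window and was not tested as a site.

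Total counts per library ran from 3540043 to 7026393, and the members held 172304 to 485447 of them. The ribosomal RNA gene Rn45s took 3.91% to 17.8%. The altered genes gave a partial check of the labels. Mir146 had 0 counts in 11 libraries, those of intact genotype included, and 14 counts in A031, a library labelled miR146aKO_Runx1mut, so counts and medians over all members, and the leading changes of a contrast, are also given without A031 where it enters. Runx1 was present in every library, at 98.3 to 609 CPM (counts per 1e6 counts of the library, with TMM scaling between libraries), and a gene count does not show a frameshift. The gate was checked by its own markers. Kit was at 218 to 436 CPM in wildtype and at 24.6 to 59.7 in miR146aKO, and Ly6a, the gene for Sca-1, was at 46.0 to 216 in wildtype and at 505 to 1019 in miR146aKO. In raw counts, Kit had 3187, 1634 and 1528 and Ly6a 1187, 974 and 323 in A015, A040 and A053 (wildtype). Kit had 797, 4998 and 588 and Ly6a 144, 1561 and 1006 in A021, A042 and A058 (Runx1mut). For A001, A031 and A051 (miR146aKO_Runx1mut) they were 1036, 1234 and 677, and 108, 681 and 50. Both markers thus varied widely in these genotypes too. The summed CPM of B cell markers was 474 to 2624 in miR146aKO against 13.4 to 157 in the other 9 libraries.

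A GENCODE entry on GRCm38 was found for each of the 76 members, and 75 passed the filter on low counts. Levels between genes are compared here only as CPM per kilobase of the principal mRNA. The median member stood at 896 CPM per kilobase, and the middle of the list was narrow, from 598 at the lower to 1383 at the upper quartile. The highest was Rps29 at 5320 CPM per kilobase, a short protein of the 40S head that binds zinc. It was followed by Rpl41, the smallest ribosomal protein, at 4106, Rpl32 at 3799, Rps28 at 3745 and Rpl31 at 3317. Both subunits are thus among the leading genes. The order depends on the annotated length of the principal mRNA, which for these leading genes was 271 (Rps28) to 517 bases (Rpl32). Rps20, with a listed mRNA of 3706 bases, stood at 1699 CPM but at 458 CPM per kilobase. Other choices of transcript were not tried.

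**Figure D1:**
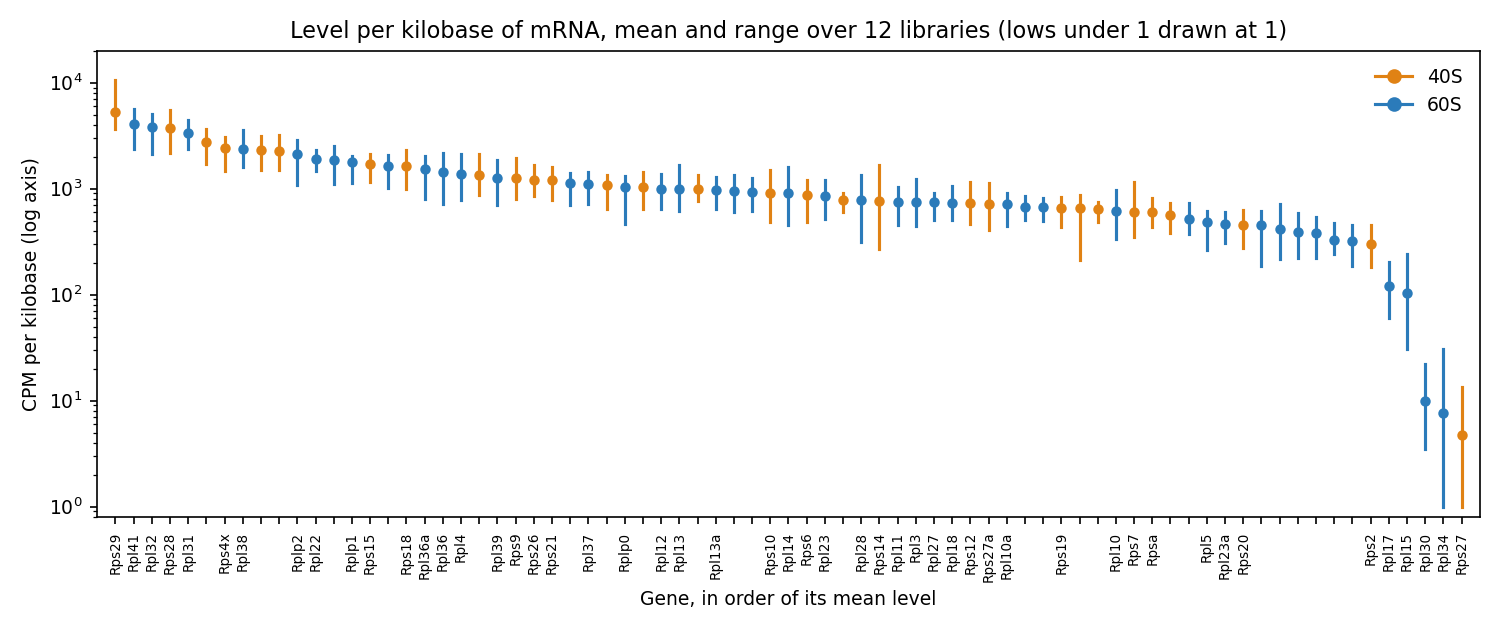
CPM per kilobase of mRNA (log axis) of the 75 members with counts, in order of the mean. Points are means and bars the range over the 12 libraries, only genes named in the text are labelled, and Rpl17, Rpl15, Rpl30, Rpl34 and Rps27 lie below the other 70 genes.

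At the other end, Rpl26 (chromosome 11, 68901583 to 68906989, plus strand) was listed at 0 in each of the 12 libraries. A count of 0 allows up to 3 counts, or 0.410 to 0.948 CPM depending on the library. Rps27 had 100 counts over all libraries (4.71 CPM per kilobase), Rpl34 had 212 (7.57) and Rpl30 had 363 (9.98). These are core proteins of the ribosome, so such levels stand far below those of their partners. Rpl15 (105 CPM per kilobase) and Rpl17 (122) came next.

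Copies of these genes elsewhere in the genome can take or withhold reads, and how reads with several matches were counted is not given in the sources used here. Of the 50-base stretches of the Rps27 mRNA, 98.6% also occur in Rps27rt, which was at 0 counts as well. For Rpl26 the share found in other genes was 71.3%, for Rpl15 75.2%, for Rpl17 78.7%, for Rpl34 50.6% and for Rpl30 47.8%. Other members shared much as well. Rpl10a shared 88.1% and stood at 713 CPM per kilobase, and Rpl3 shared 85.6% and stood at 753. These are examples, and sharing was not compared with level over all members. Levels of all members with copies are therefore uncertain, and the part of the copies in the low values was not tested.

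The members together took 3.96% to 8.04% of the counts of a library. In wildtype the share was 7.31% in A015, 5.14% in A040 and 7.20% in A053. In miR146aKO it was 5.30% in A047, 3.96% in A150 and 4.66% in A151. A040 overlapped the miR146aKO range, so these groups did not separate. In Runx1mut the share was 6.71% in A021, 6.66% in A042 and 8.04% in A058. In miR146aKO_Runx1mut it was 5.95% in A001, 7.70% in A031 and 5.30% in A051. All 3 Runx1mut libraries lay above the 3 miR146aKO libraries, whereas A051 fell just short of A047. This order of A051 and A047 depended on Rn45s. With Rn45s left out of the totals, A051 was at 6.44% and A047 at 6.24%. The miR146aKO_Runx1mut libraries then ran from 6.44% to 8.17%, above the 4.54% to 6.24% of miR146aKO. The wildtype library A040 still lay within the miR146aKO range. As means the shares of all counts were 6.55 ± 1.22% (SD, n = 3) in wildtype and 4.64 ± 0.67% in miR146aKO. They were 7.14 ± 0.79% in Runx1mut and 6.32 ± 1.24% in miR146aKO_Runx1mut. The Wilson 95% interval of a single share was at most 0.0233 percentage points on either side, which covers counting error only, so the spread within a genotype is far wider than counting error. A share summed over members was given no test.

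**Figure D2:**
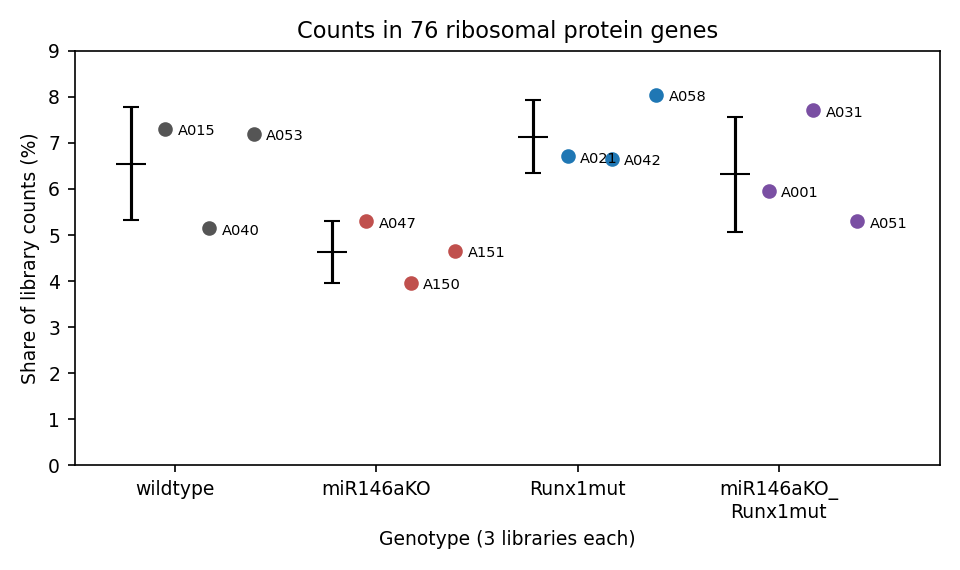
Share of each library's counts that fell in the 76 ribosomal protein genes (percent), by genotype. Points are libraries and bars are the mean and SD of 3, with the miR146aKO libraries between 3.96% and 5.30% and the Runx1mut libraries between 6.66% and 8.04%.

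The subunits kept a near constant balance. The summed level per kilobase of the 40S members was 0.740 to 0.901 times that of the 60S members across the 12 libraries. Its mean was 0.804 ± 0.048 (SD, n = 3) in wildtype, 0.818 ± 0.011 in miR146aKO, 0.807 ± 0.084 in Runx1mut and 0.811 ± 0.042 in miR146aKO_Runx1mut. The lowest and the highest value both came from Runx1mut libraries, A042 and A058. Part of the variation was common to the members. The library's own mean accounted for 30.4% of the variation of log2 CPM over the 75 genes tested. For the 72 members with a mean of at least 10 CPM, chosen after their values were seen, it accounted for 43.7%. Of the 75 genes tested, 29 had their lowest level in A150 and 25 in A151, both miR146aKO, while 17 had their highest in A058. The miR146aKO library A047 was lowest in only 2, and the wildtype library A040 in 9. The same count was not made over all genes.

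With each library's median member taken off, the SD of a member across the 12 libraries had a median of 0.25 on the log2 scale. Among the steadiest were Rpl23a (0.13), Rps4x (0.14) and Rpl37 (0.15). Rps4x, the X-linked gene of a 40S protein, was at 2779, 2074 and 2746 CPM in the wildtype libraries A015, A040 and A053. It was at 2224, 1416 and 1887 in the miR146aKO libraries A047, A150 and A151, and A047 was above the wildtype library A040. The most variable members were Rpl34 (1.59), Rps27 (1.36) and Rpl30 (0.87), which had few counts, and then Rpl15 (0.74).

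The libraries A015 (wildtype) and A042 (Runx1mut) stood apart from the rest in the pattern among members. Relative to its library's median member, the same genes were high and the same genes low in both. Across 72 members the relative levels of A015 and A042 had a Pearson r of 0.90 (Spearman rho 0.87), and r was 0.87 without the leading genes Rpl15 and Rps14. The 12 pairs of libraries of 1 genotype had r from -0.48 to 0.41, with a median of -0.08. The other 53 pairs between genotypes ran from -0.54 to 0.53, with a median of -0.17. Each gene's mean over the 12 libraries was taken off, which by itself moves r of a typical pair below 0. All these correlations share genes, mRNA lengths and the members' means, so they are a description.

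**Figure D3:**
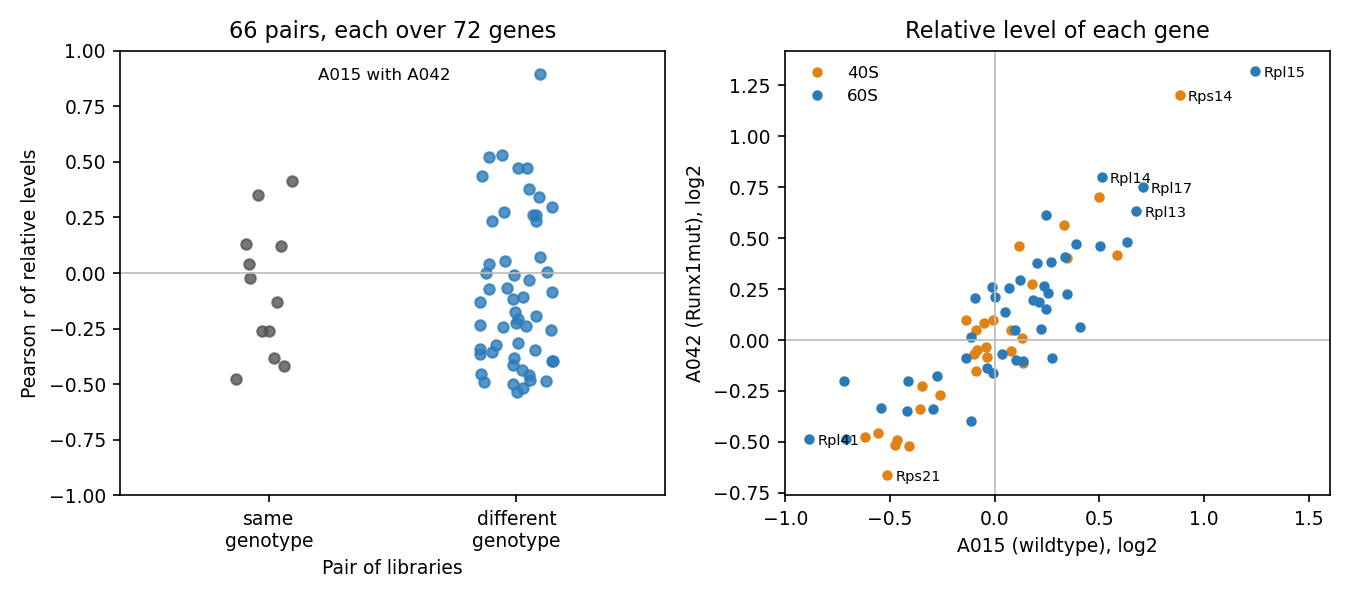
Left, Pearson r of relative member levels (log2, each library's median member and each gene's mean taken off) for 66 pairs of libraries over 72 genes, by whether the pair shares a genotype. Right, the values of each gene in A015 and A042, with Rpl15 and Rps14 at the top right and Rpl41 and Rps21 at the lower left; r of this pair was 0.90.

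In 26 of the 72 members, A015 and A042 held the highest 2 or the lowest 2 places of the 12 libraries. The pair with the next largest number, A040 with A047, did so in 9. The 13 members highest in both included Rpl3, Rpl11, Rpl13, Rpl14, Rpl15, Rpl17, Rpl18, Rpl23a, Rpl36, Rps9, Rps10 and Rps14. The 13 lowest in both included Rpl4, Rpl12, Rpl27, Rpl38, Rpl41, Rps7, Rps12, Rps20, Rps21, Rps27a, Rps28 and Rps29. These genes were picked from their values, so their properties are a description with no test. Of the 13 high genes 4 code for 40S proteins, and of the 13 low genes 8 do. The median mRNA length was 761 bases in the high and 614 in the low genes, and the median GC content 54.6% and 52.5%.

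Rpl15 (chromosome 14, 18267823 to 18271391, minus strand) shows the pattern most plainly. It is a 60S protein and 1 of the Diamond-Blackfan genes. It stood at 189 CPM in A015 and 193 in A042, and at 24.6 to 96.7 in the other 10 libraries, so neither overlapped them. Rpl14, a 60S surface protein, was at 1376 and 1629 CPM against 456 to 1051 elsewhere. Rpl13 was at 1293 and 1219 CPM against 480 to 831. Rpl41 went the other way on the relative scale, at 1031 CPM in A015 and 1320 in A042, with A150 at 1199 between them and the other 9 libraries from 1325 to 2457.

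The pair are not copies of 1 library. A chi-square statistic over the members averaged 49.6 per gene between them, where sampling noise gives about 1. It was still among the lowest values, at rank 3 of 66 pairs. The pairs ran from 35.1 (A047 with A150) to 438 (A015 with A058). Y-linked genes averaged 0.137 CPM in A015 and 42.4 in A042, and Xist was at 4452 and 348 CPM. Over all genes tested the pair had r = 0.46, second of 66 pairs after A150 with A151 (0.52). Rn45s took 13% and 16.4% of their counts, and 15.1% in A047 and 17.8% in A051. The mean log2 CPM of the stem cell markers was 7.87 in A015 and 6.79 in A042, against 1.68 to 6.99 elsewhere. The part of ribosomal RNA, depth, cell state or amplification in the shared pattern was not tested. Counts and medians over all members, and the leading changes of a contrast, are also given without both libraries where they enter.

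**Figure D4:**
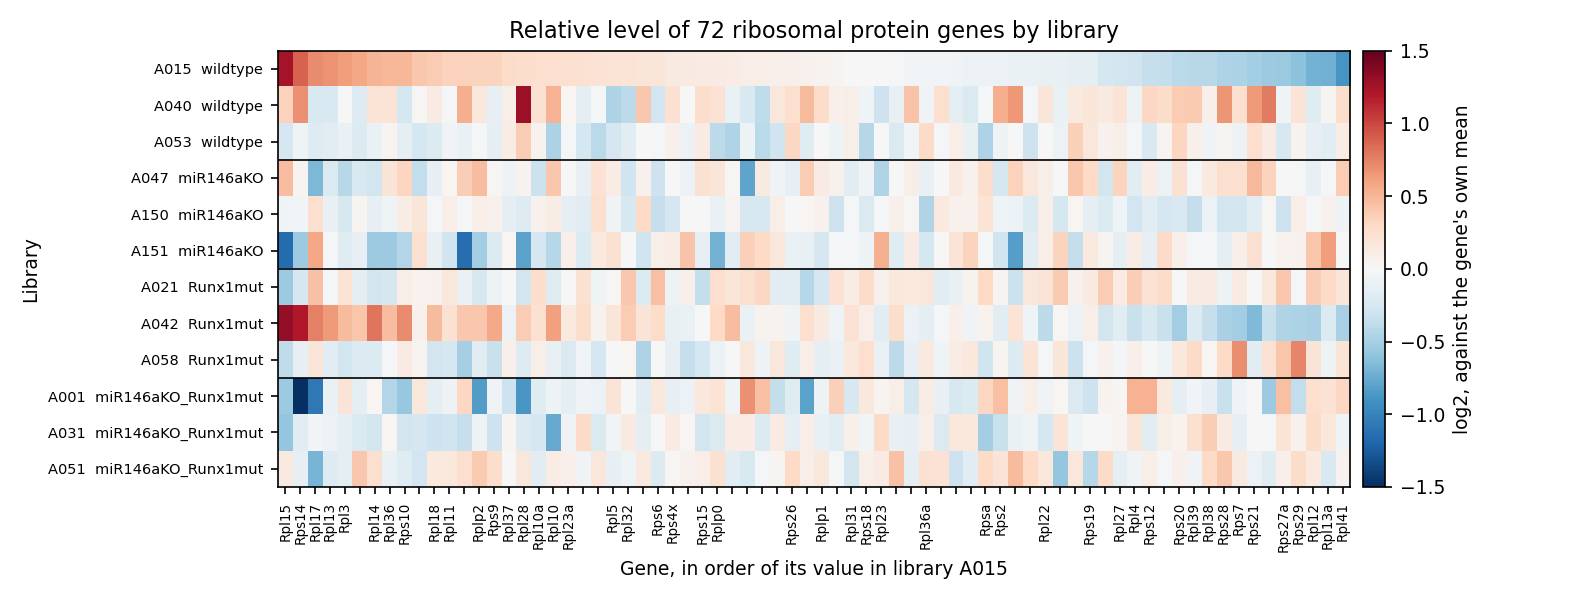
Relative level (log2, library median member taken off, against each gene's own mean) of 72 members by library, with genes in order of their value in A015 (those named in the text labelled) and black lines between genotypes. The A042 row runs from high to low in nearly the same order as the A015 row, whereas A040 and A053, the other wildtype libraries, do not.

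Wildtype was the reference for 3 contrasts. Another 3 compared the altered genotypes with each other, and the last was the interaction of the alterations. It asks whether the Runx1mut effect differs with and without miR-146a. No member was called in any of the 7 contrasts at an adjusted p under 0.05 (edgeR quasi-likelihood test, Benjamini-Hochberg over 12744 genes). Among all genes tested the called share was 0.18% for miR146aKO against wildtype, 0.141% for Runx1mut against miR146aKO, 0.0157% for miR146aKO_Runx1mut against miR146aKO and 0.0235% for the interaction, and 0% in the other 3 contrasts. With so few calls among all genes, 0 of 75 members is near the background.

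DESeq2 and limma-voom also called 0 members in each contrast. DESeq2 called 7.63% of all genes for miR146aKO against wildtype, 6.27% for Runx1mut against miR146aKO and 5.96% for miR146aKO_Runx1mut against miR146aKO. Its shares were 0.901% for Runx1mut against wildtype, 1.88% for miR146aKO_Runx1mut against wildtype, 0.566% for miR146aKO_Runx1mut against Runx1mut and 1.77% for the interaction. With limma-voom the shares were 0.596%, 0.337% and 0.0942% for miR146aKO against wildtype, Runx1mut against miR146aKO and miR146aKO_Runx1mut against miR146aKO, and 0% in the other 4.

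**Figure D5:**
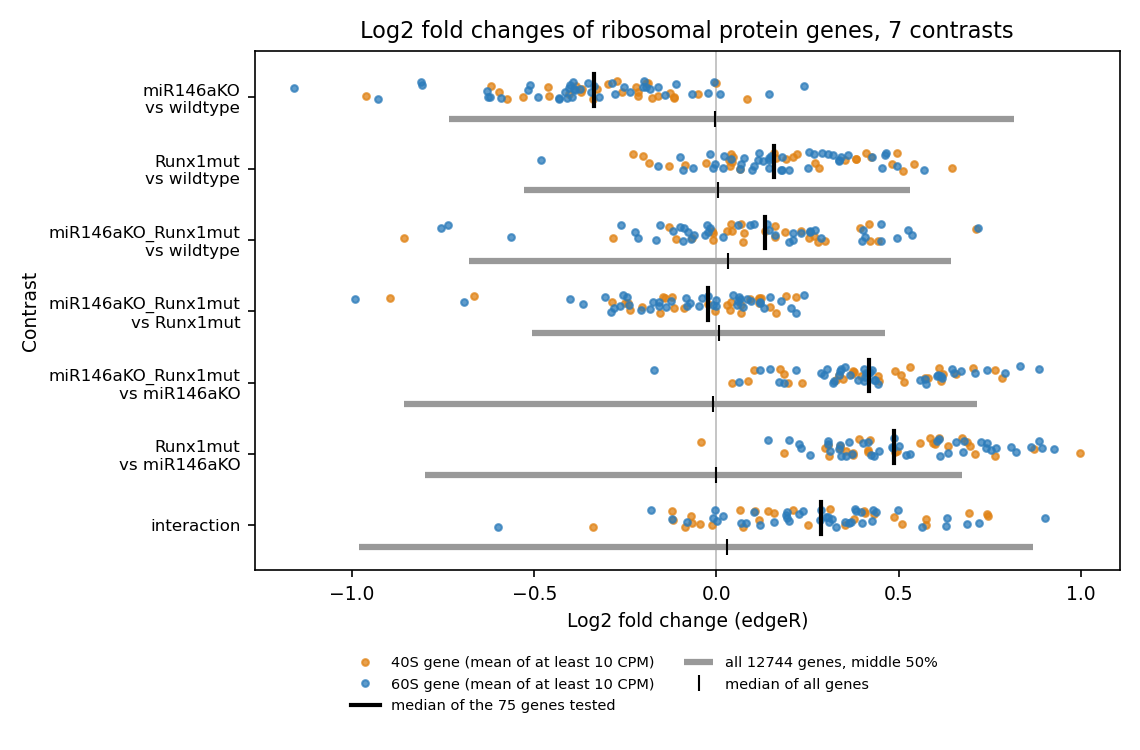
Log2 fold changes (edgeR) of the 72 members with a mean of at least 10 CPM in 7 contrasts, by subunit, with the median over the 75 tested. Grey bars are the middle 50% of all 12744 genes and black ticks their median; the members' medians are -0.34, 0.16, 0.13, -0.02, 0.42, 0.49 and 0.29 from top to bottom.

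Between miR146aKO and wildtype, 70 of the 75 members had a lower mean in miR146aKO and 5 a higher one, with a median log2 fold change of -0.34. Over all genes tested the median was -0.003, with 50.1% on the lower side. None was called. The 3 members of smallest p on the lower side were the 60S proteins Rpl28, Rpl3 and Rpl14, and the 3 on the higher side Rpl13a (0.24), Rpl12 (0.15) and Rps27 (0.70, from few counts). At an unadjusted p under 0.05 there were 4 members lower (5.33%) and 0 higher, where 7.09% of all genes were lower and 8.81% higher. In 8 members (10.7%) all miR146aKO libraries lay below all wildtype libraries, close to the 10.3% of all genes. Neither count is above the background.

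Rpl28 (chromosome 7, 4792874 to 4795066, plus strand; its promoter is shown above) was at 738, 1035 and 820 CPM in the wildtype libraries A015, A040 and A053. It was at 562, 357 and 242 in the miR146aKO libraries A047, A150 and A151, so the groups did not overlap. Its log2 fold change was -1.16 ± 0.37 (SE), with an adjusted p of 0.158 (edgeR). Rpl3 (chromosome 15, 80077791 to 80091868, minus strand), a large protein near the catalytic centre, was at 1659, 744 and 1028 CPM in wildtype and at 708, 601 and 651 in miR146aKO. Here A015 was far above the other wildtype libraries, and A040 only slightly above A047. The change was -0.81 ± 0.33 (adjusted p 0.252, edgeR). Rpl14 had -0.81 ± 0.35 (adjusted p 0.276, edgeR), and Rpl10a (chromosome 17, 28328471 to 28331033, plus strand) had -0.63 ± 0.28 (adjusted p 0.288, edgeR). Rpl3 and Rpl14 are among the genes high in A015.

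Without A015 and A042, 64 members were on the lower side, 1 passed an unadjusted p under 0.05 and the median was -0.25. In 11 members (14.7%) the groups then did not overlap with miR146aKO lower, against 15.9% of all genes. Rpl28 had -1.26 ± 0.41 there, Rpl3 -0.44 ± 0.32, Rpl14 -0.54 ± 0.32 and Rpl10a -0.51 ± 0.32. Rpl13a had 0.11, Rpl12 0.037 and Rps27 0.83. Scaled by total counts only, the median was -0.52 with 12 members lower at that p, while the median of all genes was itself -0.17. Without A047 10 members were lower at that p with a median of -0.52, and without A040 12. Without A150 there was 1, with a median of -0.22, and without A151 or A015 1 each.

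Other cell types and states moved with this comparison, and all shown here are for the whole marker lists. All 9 B cell markers and all 8 monocyte and macrophage markers had a higher mean in miR146aKO, with 1 of them called, Cd79b. B cell markers summed to 18.3 to 79.3 CPM in wildtype, with Pax5 at 0, and to 474 to 2624 in miR146aKO. Monocyte and macrophage markers summed to 231 to 469 CPM and to 515 to 6721. All 10 stem cell markers and all 12 cell cycle genes had a lower mean, none called. Stem cell markers summed to 1181 to 3420 CPM in wildtype and to 189 to 470 in miR146aKO, and cell cycle genes to 1838 to 7568 and to 1897 to 2147. The 4 Y-linked genes summed to 0.547 to 32 CPM in wildtype and to 99.3 to 241 in miR146aKO, without overlap, so sex and genotype cannot be told apart here. In bulk libraries a different mix of cells and a different level per cell cannot be told apart. A fit with Y-linked level as a covariate cannot separate them, since that level did not overlap between these groups. In it 56 members were on the lower side and 19 on the higher, with 2 lower at an unadjusted p under 0.05. The median was -0.25, where all genes had -0.06. The members' median less that of all genes was thus -0.19, against -0.33 without the covariate. T and NK cell markers summed to 88.8 to 363 CPM and to 106 to 1530, with 6 of 8 higher and Cd2 called. The median sum was 160 CPM in wildtype and 138 in miR146aKO, where A047 stood apart. Cd3e had 2036 counts in A047 against 36 and 11 in A150 and A151, Cd3d 598 against 2 and 0, and Cd3g 600 against 7 and 0. Cd2 had 302, 324 and 340 counts in these libraries. All 7 megakaryocyte markers had a lower mean, at 275 to 1586 and 55.0 to 99.1 CPM, and 5 of 8 erythroid, 5 of 8 neutrophil and 5 of 6 stromal and endothelial markers a higher one, with none of these called. The part of these cell types in the members' values was not tested.

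Between Runx1mut and wildtype, 59 of 75 members had a higher mean in Runx1mut and 16 a lower one, with a median of 0.16 against 0.01 for all genes. No member passed even an unadjusted p under 0.05, where 2.64% of all genes were higher and 2.88% lower. The 3 smallest p on the higher side belonged to Rps18 (0.54 ± 0.28), a protein of the 40S head, Rps27a (0.65 ± 0.35), which is made fused to ubiquitin, and Rpl12 (0.57 ± 0.32). On the lower side they belonged to Rpl28 (-0.48 ± 0.37), Rps15 (-0.20 ± 0.30) and Rps26 (-0.18 ± 0.28). Rps27a was at 325, 322 and 417 CPM in the wildtype libraries A015, A040 and A053, and at 608, 338 and 718 in the Runx1mut libraries A021, A042 and A058. A042 was thus within the wildtype range and the other 2 above it. The median was 0.28 without A015 and A042, with 62 members higher and 1 at an unadjusted p under 0.05, Rps18 (0.80 ± 0.35). Rps27a then had 0.84 ± 0.39, Rpl12 0.70 ± 0.35, Rpl28 -0.77 ± 0.46, Rps15 -0.22 ± 0.38 and Rps26 -0.19 ± 0.36. Without A015 alone the median was 0.31, with 3 members higher at that p, and without A042 alone there were 2. The covariate of Y-linked level gave a median of 0.29, and limma-voom 3 members higher at that p. Scaled by total counts only, 49 were higher and 26 lower. Without A040 the median was 0.04, with 42 members higher. All 8 neutrophil markers had a higher mean in Runx1mut (median 1.06, 2 at an unadjusted p under 0.05), at summed levels of 2535 to 54047 CPM against 2205 to 27384 in wildtype. All 10 stem cell markers had a lower mean, with a mean log2 CPM of 4.18 ± 2.26 (SD, n = 3) against 7.12 ± 0.69. The Y-linked genes had 4.21 ± 1.71 against 0.58 ± 1.95. The part of these in the members' values was not tested.

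Between miR146aKO_Runx1mut and wildtype, 48 members had a higher mean and 27 a lower one, with a median of 0.13 against 0.03 for all genes. Rpl12, a protein of the stalk base, was the only member at an unadjusted p under 0.05 on the higher side (1.33%), against 4.99% of all genes. It was at 795, 798 and 1219 CPM in wildtype and at 1587, 1712 and 1321 in A001, A031 and A051, so the groups did not overlap. Its log2 fold change was 0.72 ± 0.32, with an adjusted p of 0.512 (edgeR). Next came Rps27a (0.71 ± 0.35) and Rpl4 (0.54 ± 0.31), and on the lower side Rpl28 (-0.74 ± 0.37), Rps14 (-0.86 ± 0.47) and Rpl15 (-0.76 ± 0.61). The direction of the group as a whole was not stable. Scaled by total counts only, 31 members were higher and 44 lower, with a median of -0.06 where all genes had -0.16. Without A040 the median was -0.07, without A031 0.08, without A021 0.08, and without A015 and A042 0.19. Rpl12 had 0.63 ± 0.36 without A031 and 0.61 ± 0.33 without A015 and A042, and passed the unadjusted p in neither. In the same order Rps27a had 0.68 and 0.65, Rpl4 0.51 and 0.53, and Rpl28 -0.83 and -0.84. Rps14 had -1.13 and -0.54, and Rpl15 -0.68 and -0.10, so that both were nearer 0 without A015 and A042. All 8 monocyte and macrophage markers had a higher mean in miR146aKO_Runx1mut (5 at an unadjusted p under 0.05), as had all 8 neutrophil and 7 of 8 erythroid markers. All 10 stem cell markers had a lower mean, with a mean log2 CPM of 3.17 ± 2.13 (SD, n = 3) against 7.12 ± 0.69. None of these genes was called, and their part in the members' values was not tested.

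Between miR146aKO_Runx1mut and Runx1mut, 33 members had a higher and 42 a lower mean, with a median of -0.02 against 0.01 for all genes. Rpl17, which lies at the exit of the nascent chain, had -0.99 ± 0.46 and was the only member lower at an unadjusted p under 0.05 (1.33%), against 1.75% of all genes. Its adjusted p was 0.999 (edgeR). It was at 125, 156 and 121 CPM in A021, A042 and A058, and at 46.7, 101 and 53.8 in A001, A031 and A051, without overlap. Next on the lower side were Rps14 (-0.90 ± 0.47) and Rps10 (-0.67 ± 0.38), and on the higher side Rpl38 (0.24 ± 0.31), Rpl23 (0.22 ± 0.32) and Rpl34 (1.14 ± 1.68, from few counts). Rpl17, Rps14 and Rps10 are all among the genes high in A042. Without A015 and A042 the median was -0.06, with 28 members higher, and no member passed the unadjusted p. Scaled by total counts only, 13 were higher and 62 lower, with a median of -0.15 where all genes had -0.12. Without A031 the median was -0.04, with 2 members lower at that p, Rpl17 (-1.42 ± 0.51) and Rps14 (-1.17 ± 0.54). Rps10 then had -0.76, Rpl38 0.080, Rpl23 0.084 and Rpl34 1.68. With A015 and A042 left out, Rpl17 had -0.87 ± 0.51, Rps14 -0.33 ± 0.45 and Rps10 -0.48 ± 0.39, and Rpl38 had 0.088, Rpl23 0.14 and Rpl34 1.74. All 8 monocyte and macrophage markers and all 8 erythroid markers had a higher mean in miR146aKO_Runx1mut, each with 5 at the unadjusted p and none called. Their part in the members' values was not tested.

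The remaining contrasts share the miR146aKO libraries with the first, and each is given by its own values. Between miR146aKO_Runx1mut and miR146aKO, 74 of 75 members had a higher mean in the double genotype, with a median of 0.42 against -0.01 for all genes, of which 49.6% were on the higher side. None was called. At an unadjusted p under 0.05 there were 9 members higher (12%) and 0 lower, against 7.6% of all genes higher. In 28 members (37.3%) all miR146aKO_Runx1mut libraries lay above all miR146aKO libraries, against 9.45% of all genes. Without A150 0 members passed the unadjusted p, without A001 2, without A151 4, without A031 5 and without A047 18. Scaled by total counts only there were 4. Leaving out A031 gave a median of 0.42 and 68 members higher, and 33 members (44%) without overlap, against 15.7% of all genes.

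The 3 smallest p belonged to Rpl36a, Rps2 and Rpl4. Rpl36a (chromosome X, 134585654 to 134588062, plus strand), a 60S protein near the exit site, was at 638, 382 and 452 CPM in A047, A150 and A151. It was at 867, 913 and 840 in A001, A031 and A051, so the groups did not overlap. Its log2 fold change was 0.83 ± 0.32, with an adjusted p of 0.248 (edgeR). Rps2, a 40S protein at the entry of the mRNA channel, was at 239, 206 and 183 CPM and at 457, 281 and 342. Its change was 0.78 ± 0.30 (adjusted p 0.252, edgeR). Rpl4, a large 60S protein lining the exit tunnel, was at 1753, 1210 and 1661 CPM and at 3277, 2752 and 1967. Its change was 0.79 ± 0.31 (adjusted p 0.259, edgeR). Neither gene overlapped between the groups. The 1 member with a lower mean was Rpl17 (-0.17 ± 0.46). Without A031 Rpl36a had 0.80 ± 0.36, Rps2 0.93 ± 0.33, Rpl4 0.77 ± 0.35 and Rpl17 -0.59 ± 0.50.

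Between Runx1mut and miR146aKO, 73 members had a higher mean in Runx1mut, with a median of 0.49 against -0.0025 for all genes, of which 49.9% were on the higher side. None was called. There were 12 members higher at an unadjusted p under 0.05 (16.0%) and 0 lower, against 6.35% of all genes higher. In 29 members (38.7%) the Runx1mut libraries lay above all miR146aKO libraries, against 11.3% of all genes. Without A015 and A042 the median was again 0.49, with 13 members at the unadjusted p and 42 (56%) without overlap, against 18.4% of all genes. Without A150 there were 3, without A151 5, without A058 6 and without A047 24, the last with a median of 0.70. Scaled by total counts only there were 20.

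Rpl10a, a protein of the L1 stalk, was at 396, 389 and 324 CPM in A047, A150 and A151. It was at 641, 633 and 667 in A021, A042 and A058, so the groups were well apart. Its log2 fold change was 0.81 ± 0.28, with an adjusted p of 0.204 (edgeR). Rpl32 (chromosome 6, 115805505 to 115808747, minus strand) was at 1488, 1166 and 1449 CPM and at 2619, 2617 and 2379, again apart. Its change was 0.89 ± 0.31 (adjusted p 0.204, edgeR). Rps6, the 40S protein that S6 kinase phosphorylates, was at 579, 428 and 600 CPM and at 1067, 953 and 920. Its change was 0.87 ± 0.32 (adjusted p 0.237, edgeR). The only members with a lower mean were Rps21 (-0.04 ± 0.35) and Rpl34 (-0.15 ± 1.67). With both A015 and A042 left out Rpl10a had 0.82 ± 0.31, Rpl32 0.87 ± 0.32, Rps6 0.89 ± 0.35, Rps21 0.15 ± 0.36 and Rpl34 -0.74 ± 2.09.

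The marker lists differed here as well. B cell markers summed to 13.4 to 157 CPM in Runx1mut and to 55.5 to 109 in miR146aKO_Runx1mut, below the 474 to 2624 of miR146aKO. Monocyte and macrophage markers summed to 70.4 to 479 CPM in Runx1mut and to 467 to 3994 in the double genotype, the latter overlapping the 515 to 6721 of miR146aKO. Cell cycle genes summed to 3461 to 7176 and 3672 to 5781 CPM, above the 1897 to 2147 of miR146aKO. All 12 had a higher mean in both contrasts, and none was called. Stem cell markers summed to 210 to 2074 and 227 to 1233 CPM, overlapping miR146aKO. T and NK cell markers held the only called gene of these lists, Cd2, in both contrasts. Its log2 fold change against miR146aKO was -8.62 ± 1.02 in the double genotype (adjusted p 0.00756, edgeR) and -5.36 ± 0.85 in Runx1mut (adjusted p 0.0335, edgeR). Of these markers 7 of 8 and 8 of 8 had a lower mean, where the miR146aKO counts of Cd3e, Cd3d and Cd3g came mostly from A047. All 7 megakaryocyte markers had a higher mean in both, with medians of 3.89 and 2.48 and 5 and 3 at the unadjusted p. Erythroid markers had a higher mean in 8 of 8 for the double genotype and a lower one in 7 of 8 for Runx1mut. Their part in the members' values was not tested.

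The interaction had a median of 0.29 against 0.03 for all genes, with 60 members above 0 and 15 below. No member passed an unadjusted p under 0.05, where 4.43% of all genes were higher and 5.04% lower. The 3 smallest p above 0 belonged to Rps26 (0.69 ± 0.39), Rps2 (0.74 ± 0.43) and Rpl28 (0.90 ± 0.52), and those below to Rpl17 (-0.60 ± 0.65), Rps10 (-0.34 ± 0.54) and Rpl13a (-0.18 ± 0.43). The median moved with single libraries. It was 0.15 without A015, 0.39 without A040, 0.20 without A150 or A151, 0.22 without A031 and 0.44 without A047, the last with 3 members higher at that p. It was 0.15 with the Y-linked covariate, with 49 members above 0, 26 below and 1 higher at that p, and 0.19 without A015 and A042. In the fit without A015 and A042 Rps26 had 0.70, Rps2 0.68, Rpl28 1.20, Rpl17 -0.96, Rps10 -0.52 and Rpl13a -0.17. Without A031 they had 0.71, 0.90, 0.82, -1.02, -0.42 and -0.29. No member was called in any of these fits.

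By subunit, the 30 genes of the 40S had -0.27 for miR146aKO against wildtype and the 45 tested of the 60S -0.37. For Runx1mut against miR146aKO they had 0.45 and 0.49, and for miR146aKO_Runx1mut against miR146aKO 0.42 each. They had 0.20 and 0.14 for Runx1mut and 0.15 and 0.10 for miR146aKO_Runx1mut against wildtype. For miR146aKO_Runx1mut against Runx1mut they had 0.0074 and -0.041, and for the interaction 0.18 and 0.31. Without A015 and A042 the values were -0.26 and -0.23 for miR146aKO against wildtype, 0.44 and 0.50 for Runx1mut against miR146aKO, 0.28 each for Runx1mut against wildtype, and 0.16 and 0.20 for miR146aKO_Runx1mut against wildtype. They were then -0.11 and -0.047 for miR146aKO_Runx1mut against Runx1mut, and 0.17 and 0.19 for the interaction. Without A031 they were 0.44 and 0.38 for miR146aKO_Runx1mut against miR146aKO, 0.11 and 0.052 for it against wildtype, 0.0081 and -0.072 for it against Runx1mut, and 0.17 and 0.24 for the interaction. The difference between subunits was not tested.

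Rps14, whose human counterpart is lost with the long arm of chromosome 5, varied widely between libraries of 1 genotype. In wildtype it was at 831, 507 and 442 CPM, and in miR146aKO at 409, 292 and 213. In Runx1mut it was at 361, 1003 and 463 CPM, and in miR146aKO_Runx1mut at 162, 441 and 380. The miR146aKO libraries and those of the double genotype all lay below the lowest wildtype library, A053. The log2 fold change was -0.96 ± 0.47 for miR146aKO (adjusted p 0.343, edgeR) and -0.86 ± 0.47 for miR146aKO_Runx1mut (adjusted p 0.596), both against wildtype. The highest values were in A015 and A042, without which the changes were -0.64 ± 0.44 and -0.54 ± 0.44. Without A031 the second was -1.13 ± 0.54. Rps14 overlaps Ndst1 on the other strand, and counting by strand is not stated, so reads from the pair cannot be told apart. Other named members share this limit, among them Rpl28 (Ube2s), Rpl3 (Syngr1), Rpl15 (Nkiras1), Rpl32 (Cand2) and Rpl12 (Lrsam1). Rps18 (Vps52), Rps2 (Snhg9) and Rpl10a (CT025652.2) do as well. Rps10 and Rpl13a overlap coding entries on their own strand, RPS10-NUDT3 and Gm45713.

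The P stalk, which calls translation factors to the ribosome, is built from Rplp0, Rplp1 and Rplp2. All 3 had a lower mean in miR146aKO than in wildtype, at -0.39 ± 0.32, -0.37 ± 0.28 and -0.34 ± 0.39, with none called. Rplp0 was at 1633, 1215 and 1170 CPM in wildtype and at 1506, 931 and 633 in miR146aKO, so A047 lay within the wildtype range. The summed level of the stalk was 2757 to 3811 CPM across wildtype libraries and 1645 to 3569 across miR146aKO libraries. It was 3241 to 4009 CPM with Runx1mut alone and 3251 to 3741 with both alterations. In miR146aKO, A151 was the low library.

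Rpl5 and Rpl11 form the 5S particle that holds Mdm2 in check. Rpl5 was at 1227, 537 and 910 CPM in wildtype and at 1015, 679 and 861 in miR146aKO, entirely within the wildtype range (-0.07 ± 0.33). Rpl11 was at 861, 462 and 669 CPM and at 613, 484 and 381 (-0.43 ± 0.31). In Runx1mut Rpl5 was at 1026, 1169 and 1180 CPM, and in the double genotype at 1247, 1125 and 893. Of the p53 response genes, 11 were tested and none was called in any contrast, with medians from -0.28 to 0.26. For miR146aKO against wildtype 7 were higher and 4 lower, with 1 at an unadjusted p under 0.05, Trp53inp1 (2.78 ± 1.21).

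Of 19 Diamond-Blackfan genes, 18 were tested, Rpl26 being at 0. Their median was -0.30 for miR146aKO against wildtype, with 17 lower and 1 higher. It was 0.18 for Runx1mut and 0.02 for miR146aKO_Runx1mut against wildtype, and 0.41 for Runx1mut against miR146aKO. Without A015 and A042 these medians were -0.25, 0.27, 0.10 and 0.45, and without A031 that of miR146aKO_Runx1mut against wildtype was 0.0080. Rps19, the gene most often mutated in that disease, was at 412, 359 and 524 CPM in wildtype and at 493, 274 and 347 in miR146aKO (-0.22 ± 0.32). In Runx1mut it was at 475, 470 and 499 CPM, and in the double genotype at 377, 497 and 309. The 4 ranges all overlapped. The list's summed level was 11214 to 15615 CPM in wildtype and 9773 to 13664 in miR146aKO.

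Some members have roles of their own outside the ribosome. Rpl22, deleted in some T cell leukaemias, was at 908, 778 and 1010 CPM in wildtype and at 920, 697 and 729 in miR146aKO (-0.20 ± 0.28). Its paralog Rpl22l1, whose mRNA Rpl22 is known to repress, had the smallest p among the 5 paralogs tested for Runx1mut against miR146aKO (1.42 ± 0.42, adjusted p 0.149, edgeR; 1.67 ± 0.46 without A015 and A042). Rpl22l1 was at 101, 54.4 and 57.4 CPM in A047, A150 and A151 and at 145, 119 and 306 in A021, A042 and A058. A058 was thus far above the rest.

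Rpsa, which is also known as a laminin receptor, was at 966, 700 and 765 CPM in wildtype and at 1091, 788 and 697 in miR146aKO (0.08 ± 0.30). Rpl38, known for its part in the translation of Hox mRNAs, was at 660, 647 and 874 CPM and at 862, 555 and 604 (-0.11 ± 0.31). Rpl10, whose X-linked gene is mutated in some T cell leukaemias, was at 619, 523 and 386 CPM and at 611, 374 and 269 (-0.29 ± 0.37). Each of these overlapped between the genotypes.

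Cytosolic ribosomal proteins whose symbols fall outside the rule were examined too. Rps3a1 was at 1933, 1140 and 1888 CPM in wildtype and at 1271, 991 and 1288 in miR146aKO (-0.48 ± 0.29). Fau, which makes Rps30, had 0.55 ± 0.30 in that contrast, on the other side. Neither was called. Rpl39l, a paralog of Rpl39 known from the testis, had 290 counts in A001, 1 in A040 and 0 in the other 10 libraries.

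Lists of the same pathway were set beside the members, with none of their genes called in any contrast. The 21 tested translation factors with a TOP start had a median of -0.31 for miR146aKO against wildtype, with 18 lower and 3 higher. Of them 8 (38.1%) were lower at an unadjusted p under 0.05, against 7.09% of all genes. Pabpc1, the poly(A)-binding protein (-1.25 ± 0.29, adjusted p 0.073, edgeR), and Npm1, nucleophosmin (-1.36 ± 0.36, adjusted p 0.109, edgeR), had the smallest p. For Runx1mut and miR146aKO_Runx1mut against miR146aKO the list's medians were 0.49 and 0.63. Ribosome assembly genes lay further out than the members. Their 25 genes had a median of -0.65 for miR146aKO against wildtype, with 20 lower and 5 higher, and 0.54 and 0.76 for the same pair of contrasts. For miR146aKO against wildtype 6 (24%) were lower at the unadjusted p, against the same 7.09%. Dkc1, the pseudouridine synthase of ribosomal RNA (-1.79 ± 0.38, adjusted p 0.061, edgeR), and Fbl, fibrillarin (-1.26 ± 0.34, adjusted p 0.115, edgeR), led the list. The assembly genes summed to 4547 to 7013 CPM in wildtype and to 2586 to 4236 in miR146aKO, without overlap. The 14 genes of mTOR and translation control had a median of -0.10, with 8 lower and 6 higher, led by the cap-binding protein Eif4e (-1.68 ± 0.53, adjusted p 0.152, edgeR). The TOP list had -0.27 for miR146aKO against wildtype without A015 and A042, with 6 lower at the unadjusted p, and 0.56 for Runx1mut against miR146aKO. The assembly list then had -0.47, with 5 lower, and 0.67. In that fit Pabpc1 had -1.31 ± 0.33, Npm1 -1.56 ± 0.36, Dkc1 -1.93 ± 0.42 and Fbl -1.35 ± 0.40. Without A031 the lists had 0.62 and 1.00 for miR146aKO_Runx1mut against miR146aKO. Differences between these lists and the members were not tested.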

How the data were processed

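The data are read counts per gene symbol in 12 RNA-seq libraries of mouse LSK cells, 3 per genotype. Per the labels' protocols, cDNA was amplified with a NuGEN Ovation kit (version v2), and Nextera XT made the libraries. For strand setting, annotation and multiply matching reads, nothing is given in the sources used here. The submitters' processing notes name HISAT2 2.0.4, featureCounts 1.5.2, FastQC 0.11.2 and the build mm10. The authors deposited raw counts, and no column was left unused. Columns name a genotype but no replicate, so libraries carry their column identifier.

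The deposited counts went into 1 edgeR fit over 12 libraries (version 4.0.16, R 4.3.3; 8 residual degrees of freedom) after TMM scaling and filterByExpr, and contrasts had its quasi-likelihood test. Adjusted p-values are Benjamini-Hochberg over 12744 genes, and calls are at 0.05. Log2 CPM has a prior count of 2. DESeq2 1.42.0 and limma-voom (limma 3.58.1) were alternatives. The script was tested on simulated data with larger changes and a smaller spread than here, where the common biological coefficient of variation was 0.81. That run therefore does not show whether shifts of the members' size could be called. Amplified reads are not independent molecules, so intervals and floors cover counting error only. mRNA length, copies and coordinates are from GENCODE on GRCm38, which 23376 of the 24421 symbols matched. Per kilobase refers to the principal mRNA.

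The members and lists were chosen with earlier results of these data known. Named genes are the 3 members of smallest unadjusted p on each side of each contrast, a set of members known from blood disease or special roles, the 5 highest and 5 lowest per kilobase, and the 4 most and 4 least variable. Others, such as those high or low in A015 and A042, were chosen after their values were seen. Other settings were further scalings, no filter, only the genotypes compared, Rn45s left out, a Y-linked covariate and each library left out. A few genes are not reported here by name.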

Additional observations from a re-analysis of the deposited data

How the results depend on the processing

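No member was called in any contrast under any alternative run, with smallest adjusted p-values of 0.0805 for miR146aKO against wildtype and 0.0638 for Runx1mut against miR146aKO, both by DESeq2. The group medians of log2 fold change moved by less than the spread between libraries, except for Runx1mut against miR146aKO without 1 library at a time, where they ran from 0.40 to 0.70, the highest without A047. Leaving out 1 library at a time changed the sign of the median for miR146aKO_Runx1mut against wildtype (-0.07 to 0.19) and against Runx1mut (-0.098 to 0.0017). For the other contrasts it ran from -0.52 to -0.22 for miR146aKO against wildtype, 0.04 to 0.31 for Runx1mut against wildtype, 0.35 to 0.61 for miR146aKO_Runx1mut against miR146aKO and 0.15 to 0.44 for the interaction. Over all settings, members lower at an unadjusted p under 0.05 numbered 1 to 12 for miR146aKO against wildtype. Those higher numbered 0 to 19 for miR146aKO_Runx1mut against miR146aKO, 3 to 24 for Runx1mut against miR146aKO and 0 to 3 for the interaction. Signs turned for a few named members near 0 or with few counts, and the cause was not tested. Rpl12 in miR146aKO against wildtype was -0.018 with total counts only, and -0.011 to 0.37 with 1 library left out. Rps27 was -0.12 with limma-voom and -5.20 with the Y-linked covariate, and -1.46 to 1.21 with 1 library left out. Rpl34 was -0.91 to 1.74 with 1 library left out for miR146aKO_Runx1mut against Runx1mut, and for Runx1mut against miR146aKO it was 0.019 with the Y-linked covariate and -0.74 to 0.53 with 1 library left out. Rpl17 was -0.59 to 0.072 for miR146aKO_Runx1mut against miR146aKO with 1 library left out. Rps21 in Runx1mut against miR146aKO was 0.072 with total counts only, 0.0022 with limma-voom, 0.15 without A015 and A042, and -0.26 to 0.28 with 1 library left out. Rpl13a was -0.38 to 0.0016 for the interaction with 1 library left out. No paired analysis was possible because the columns carry no replicate number. The settings without A015 and A042, and with members of at least 10 CPM only, and the overlap and list values without A031, were chosen after seeing the data.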
